A study of Mus musculus with 45 samples.

Results

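Bile acids are made from cholesterol in the liver, and their synthesis is the main route by which the body disposes of cholesterol. Expression of 10 genes of bile acid synthesis and of its feedback control was followed in liver, kidney and brain of mice fed a high-cholesterol diet with or without extracts of the mushroom Ganoderma lucidum. The genes were chosen by name (Cyp7a1, Cyp8b1, Cyp27a1, Cyp7b1, Cyp39a1, Cyp46a1, Hsd3b7, Baat, Nr1h4 and Nr0b2), and all 10 had 1 row each among the 22080 genes of the expression table. Male C57BL/6 mice, 7 weeks old at the start, were fed in groups of 8 and sacrificed on day 43 after a fast. The Control group ate the AIN-93 diet, and the HCD group ate AIN-93 with 0.5% cholesterol. The cholesterol diet with 1.0% of the Gl-1 extract (HCD+Gl-1) or of the Gl-2 extract (HCD+Gl-2) was given to further groups. Gl-1 came from fungus grown without, and Gl-2 from fungus grown with, acetylsalicylic acid. The HCD+Sim group ate the 0.5% cholesterol diet with simvastatin, an inhibitor of cholesterol synthesis, at 0.03 g per 100 g. The treated groups all carried the added cholesterol, and no group had an extract or simvastatin without it.

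RNA was pooled before it was hybridised to Affymetrix Mouse Gene ST 1.0 arrays, with 3 arrays for each of the 15 tissue and diet groups. The methods state that 4 mice went into pool A and the remaining 4 into pool B, and that pool C was made by mixing both. Each trio of arrays thus stands for only 2 independent sets of animals, and p-values measure the spread between arrays, not between mice. Values are the authors' normalised log2 expression values, and each gene has its own probe set, so levels are compared between arrays of a gene and never between genes. In whole tissue, fewer cells of a type and less RNA per cell cannot be told apart. A gene is called differentially expressed (DE) where its log2 fold change exceeds 0.7 in size with a limma adjusted p no higher than 0.05, and calls at the adjusted p alone are named as such. The summed markers of hepatocytes, kidney tubules and neurons were each highest in the tissue of the label (13.15 to 13.29, 12.01 to 12.22 and 11.60 to 11.83 on the mean log2 scale). Some liver arrays stood apart in other lists. Liver HCD+Sim arrays A and B had raised pancreas acinar markers (mean log2 level 7.48 and 8.09, against 5.99 to 6.23 in the other 13 liver arrays) and raised skeletal muscle markers (7.73 and 8.13). Liver HCD+Gl-2 arrays A and C had raised immediate early genes (8.50 and 9.0, against 7.02 in array B).

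In the classic pathway, Cyp7a1 adds the 7 alpha-hydroxyl group to cholesterol in the rate-limiting step, and Cyp8b1 adds the 12 alpha-hydroxyl group that decides how much cholic acid is made. In the alternative pathway, the mitochondrial enzyme Cyp27a1 first hydroxylates the side chain, and Cyp7b1 then hydroxylates the resulting oxysterols. Cyp46a1 makes a side chain hydroxysterol in neurons, the form in which the brain exports cholesterol, and Cyp39a1 hydroxylates that oxysterol further. Hsd3b7 acts on the ring of the intermediates of both pathways, and Baat joins finished bile acids to taurine or glycine. Bile acids bind the nuclear receptor FXR (Nr1h4), which induces the repressor SHP (Nr0b2), and SHP lowers transcription of Cyp7a1 and Cyp8b1.

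The stretch before the start of transcription was available for 6 of the 10 genes in a RefSeq promoter table (build GRCm38.p6). It is shown for Cyp8b1, which on these arrays was a liver gene, for Cyp46a1, which was highest in brain, and for Nr0b2, the feedback repressor. Each run is the 250 bases upstream of the start, read 5′ to 3′ on the strand of the gene, and capitals mark a match to a searched motif.
Cyp8b1, chr9:121916306-121916555, minus strand: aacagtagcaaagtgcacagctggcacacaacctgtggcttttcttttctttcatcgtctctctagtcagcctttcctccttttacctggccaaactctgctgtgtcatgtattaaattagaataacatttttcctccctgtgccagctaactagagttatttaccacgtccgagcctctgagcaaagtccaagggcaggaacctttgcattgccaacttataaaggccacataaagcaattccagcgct
Cyp46a1, chr12:108334066-108334315, plus strand: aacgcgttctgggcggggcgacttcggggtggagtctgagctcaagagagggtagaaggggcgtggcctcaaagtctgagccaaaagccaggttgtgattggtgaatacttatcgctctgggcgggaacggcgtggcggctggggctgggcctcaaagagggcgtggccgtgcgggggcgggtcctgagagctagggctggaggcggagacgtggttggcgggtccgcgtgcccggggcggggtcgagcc
Nr0b2, chr4:133553126-133553375, plus strand: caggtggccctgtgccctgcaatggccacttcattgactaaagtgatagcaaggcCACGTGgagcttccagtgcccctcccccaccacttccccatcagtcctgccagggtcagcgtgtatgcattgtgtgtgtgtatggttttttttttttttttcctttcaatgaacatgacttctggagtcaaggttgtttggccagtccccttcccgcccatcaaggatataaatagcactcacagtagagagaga
The upstream run of Cyp46a1 had 67.6% G and C and 23 CpG dinucleotides, against 44.8% and 4 in Cyp8b1 and 50% and 3 in Nr0b2, with a median of 52.4% G and C over the 32851 promoters of the table. On both strands 4 motifs were searched. AGGTCA is a nuclear receptor site, and its extended form, which contains it, is TCAAGGTCA. The E-box searched for was CACGTG, and the last motif was an inverted repeat of the receptor site spaced by 1 base. The E-box was found in Nr0b2 only of the 6 genes, 195 to 190 bases before the start, and in 6.02% of all promoters. AGGTCA was found in Nr1h4 only, on the strand opposite to the gene 214 to 209 bases before the start, and in 14.02% of all promoters. The Nr1h4 window lay inside the annotated span of the gene, before an internal start. The extended form and the inverted repeat were in none of the 6 and in 0.387% and 0.00609% of all promoters. These matches describe the letters in the window and no binding was measured.

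On the Control diet, the genes fell into liver genes, genes shared with kidney, and a brain gene. Cyp7a1 had log2 values of 9.29, 9.47 and 8.88 in the 3 liver arrays, against 3.86 to 4.26 in kidney and 4.06 to 4.38 in brain. Cyp8b1 (10.53, 10.40 and 10.69 in liver) and Baat (10.17, 10.21 and 10.27 in liver) likewise stood apart, with kidney and brain arrays between 5.39 and 5.98 for Cyp8b1 and between 5.09 and 5.58 for Baat. For Cyp7a1, Cyp8b1 and Baat the kidney and brain arrays overlapped (Cyp8b1 differed by 0.28, limma adjusted p = 0.0282), and these values lie below the lowest array median of 6.76, where they may be background. No detection call was used, so differences of liver against them are lower bounds. Liver exceeded kidney by at least 5.20 on the log2 scale for Cyp7a1 (limma standard error 0.17, adjusted p = 1.41e-26), by at least 4.74 for Cyp8b1 and by at least 4.89 for Baat, and by 4.01 ± 0.10 (log2 fold change ± standard error) for Hsd3b7.

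The alternative pathway was not restricted to liver in this way. Cyp27a1 had a stepped order, with 11.26, 11.28 and 11.16 in liver, 8.62, 8.58 and 8.51 in kidney and 6.90, 6.84 and 6.34 in brain. Cyp7b1 had 11.32, 11.17 and 11.50 in liver, 10.26, 10.28 and 10.23 in kidney and 6.94, 6.64 and 7.10 in brain. Kidney was thus 2.11-fold below liver for Cyp7b1 (log2 fold change 1.07 ± 0.12, adjusted p = 2.53e-10) and 10.3-fold above brain. The arrays of the 3 tissues did not overlap for either gene. Cyp39a1 followed the same order over a shorter range, with liver arrays between 7.97 and 8.18, kidney arrays between 7.49 and 7.67 and brain arrays between 6.05 and 6.33. Its brain values lie below the lowest array median of 6.76 and may be background.

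Cyp46a1 was the exception in direction. Its brain arrays read 10.79, 10.43 and 11.30, against 7.33, 7.33 and 7.66 in liver and 6.97, 7.28 and 6.91 in kidney, and brain exceeded liver 10.6-fold (the log2 fold change of liver against brain was -3.40 ± 0.13, adjusted p = 6.04e-25). The receptor and the repressor of the feedback were distributed differently. Nr1h4 had 10.15, 10.17 and 10.04 in liver and 10.01, 9.85 and 10.17 in kidney, overlapping values with a log2 fold change of 0.11 and a 95% interval from -0.11 to 0.33, and it had 5.27, 5.47 and 5.17 in brain. Nr0b2 had 8.91, 9.08 and 9.09 in liver, 6.22, 6.66 and 6.10 in kidney and 5.60, 5.58 and 5.41 in brain, with liver at least 6.49-fold above kidney. The kidney and brain values of Nr0b2 and the brain values of Nr1h4 lie below the lowest array median of 6.76 and may be background.

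**Figure D1:**
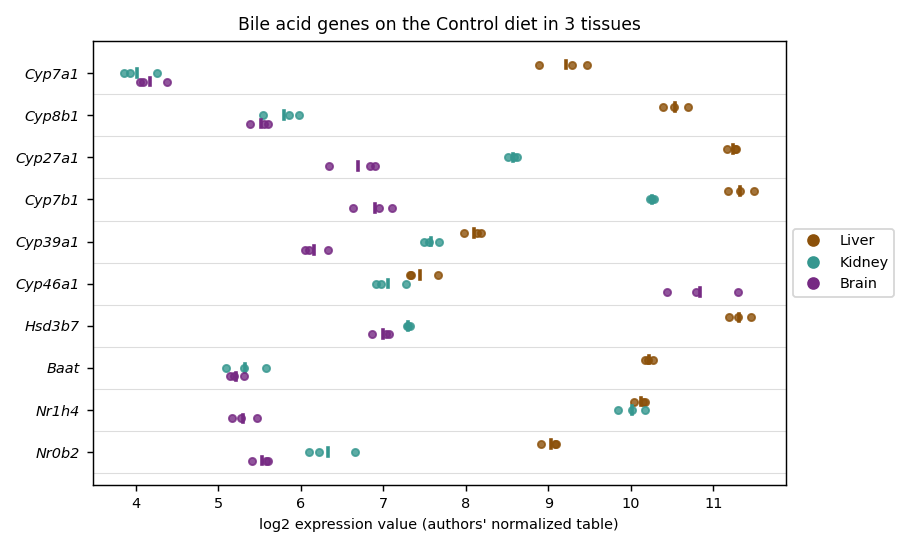
Log2 expression values of the 10 genes (rows) on the Control diet, with 3 arrays per tissue as points coloured by tissue and a vertical tick at each mean; values are to be compared along a row and not between rows. Cyp7a1, Cyp8b1, Hsd3b7 and Baat sit far to the right in liver alone, Cyp7b1 and Nr1h4 are high in liver and kidney, and Cyp46a1 is highest in brain.

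Of the 10 genes, 7 were DE between liver and kidney, against 16.8% of all genes tested. All 10 were DE between liver and brain, against 32.7% of all genes, and 6 were DE between kidney and brain, against 30% of all genes. At the adjusted p alone the counts were 9, 10 and 8 of the 10, against 48.4%, 70% and 59.1% of all genes. The median log2 fold change of the 10 was 2.68, 4.49 and 0.56 in these comparisons, against 0.06, 0.14 and 0.08 over all genes.

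The question for HCD against Control was how added dietary cholesterol changed these genes in liver. Cyp7a1 rose and Cyp7b1 fell, and the other 8 genes did not pass the test. Cyp7a1 moved from 9.29, 9.47 and 8.88 in pools A, B and C of Control to 10.24, 10.49 and 9.96 in HCD. Every HCD array lay above every Control array, and the gain was 1.02 ± 0.17 on the log2 scale (2.02-fold, adjusted p = 0.000264, DE). It was between 0.85 and 1.15 with any 1 of the 6 arrays left out, and DE each time. Cyp7b1 moved from 11.32, 11.17 and 11.50 to 10.75, 10.87 and 10.81, and fell by 0.52 ± 0.12 (1.44-fold lower, adjusted p = 0.00979), which is under the DE fold threshold. Its groups did not overlap. Thus 1 of the 10 genes was DE, against 0.245% of all genes, and 2 passed the adjusted p alone, against 1.34% of all genes.

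Both calls rest on a spread estimated over all 45 arrays. Cyp7a1 varied more between liver arrays of a group (pooled SD 0.325) than in kidney (0.16) or brain (0.129), where its level was far lower, and with only the liver arrays fitted its adjusted p was 0.07 and that of Cyp7b1 was 0.128. Leaving out Control array C or HCD array A also took the Cyp7b1 call away (adjusted p = 0.0912 and 0.0642). The clock moved in the same comparison. The mean log2 level of 10 PAR bZIP and clock repressor genes (Dbp, Per1, Nr1d1 and others), some of which are known to control Cyp7a1 through the day, was 8.60 to 8.92 in the Control liver arrays and 9.04 to 9.15 in HCD, with all 10 higher and 3 past the adjusted p. The mean of 5 clock activators was 7.78 to 7.89 in Control and 7.45 to 7.53 in HCD, with all 5 lower and 1 past the adjusted p. Skeletal muscle markers were at 6.91 to 7.30 in Control livers and 6.46 to 6.71 in HCD, with all 5 lower and 1 past the adjusted p. Kupffer cell and macrophage markers stood at 8.53 to 8.76 in Control and 8.37 to 8.44 in HCD, with all 4 lower and none past the adjusted p. The part of the clock genes, of the muscle signal and of the macrophage markers in the change of Cyp7a1 and Cyp7b1 was not tested.

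An unadjusted limma p under 0.05 was found for 4 of all 10 genes, and for 2277 of all 22080 genes. Cyp46a1 read 7.33, 7.33 and 7.66 in Control and 7.90, 7.68 and 7.78 in HCD, a difference of 0.35 (adjusted p = 0.226) between groups that did not overlap. It was between 0.35 and 0.46 over 7 alternative fits and passed in 1 (adjusted p = 0.0419). Cyp39a1 read 8.14, 8.18 and 7.97 in Control and 7.83, 7.70 and 7.87 in HCD, a difference of -0.30 (adjusted p = 0.462), again without overlap. The intervals of Cyp27a1, Cyp8b1, Hsd3b7, Baat, Nr1h4 and Nr0b2 all spanned 0, with point estimates between -0.19 and 0.22. Over the 10 genes the median difference was -0.02, against -0.01 over all genes.

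**Figure D2:**
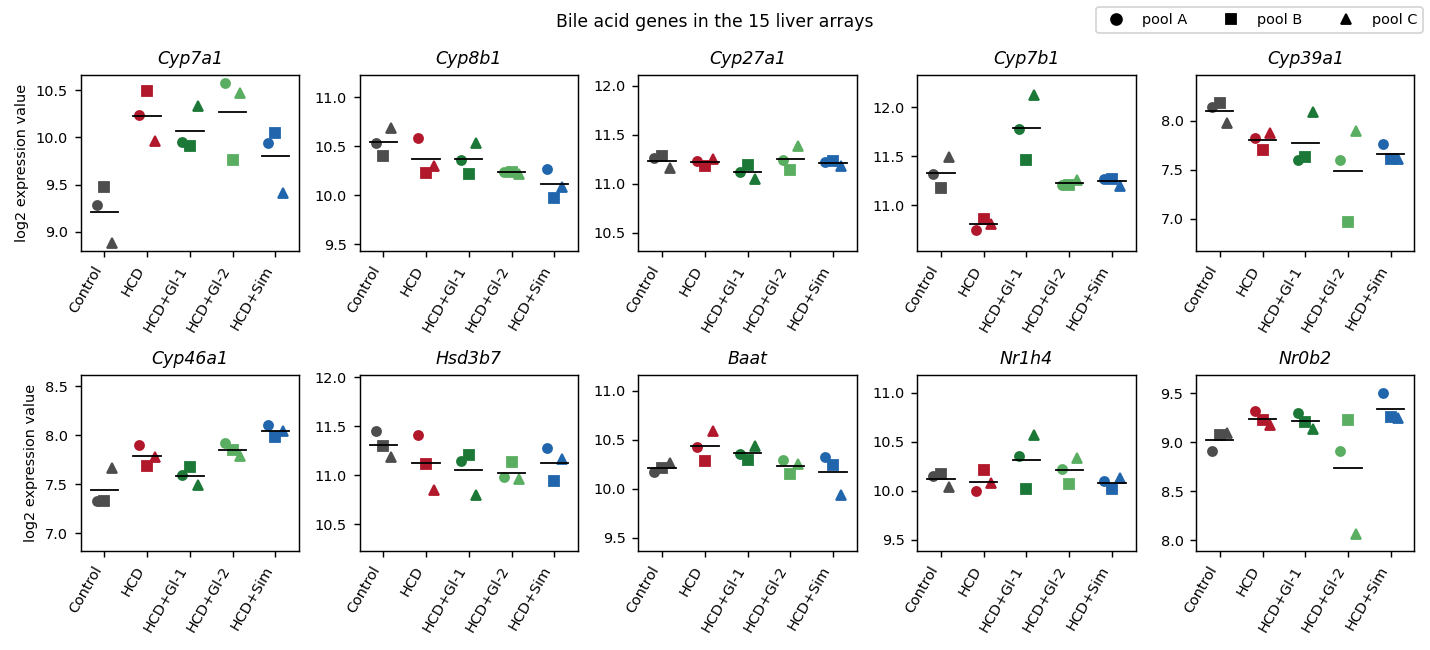
Log2 expression values of the 10 genes in the 15 liver arrays, by diet group, with pools A, B and C as circles, squares and triangles and a line at each group mean; each panel has its own axis. Cyp7a1 is lowest in Control, Cyp7b1 is lowest in HCD and highest in HCD+Gl-1, and array C of HCD+Gl-2 is far below the others for Nr0b2.

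The Gl-1 extract was compared with HCD to ask what it changed on the cholesterol diet. In liver, Cyp7b1, the oxysterol 7 alpha-hydroxylase of the alternative pathway, rose 1.98-fold. Its values were 11.78, 11.47 and 12.12 in HCD+Gl-1 against 10.75, 10.87 and 10.81 in HCD, with no overlap, and the gain of 0.98 ± 0.12 was DE (adjusted p = 2.25e-06). It remained DE in all 7 alternative fits (adjusted p at most 0.0287) and with each array left out (0.82 to 1.15). Arrays A and C of HCD+Gl-1 also lay above all 3 Control arrays, and array B lay within them. HCD+Gl-1 exceeded Control by 0.46 ± 0.12 (adjusted p = 0.0178), but not in a fit on liver arrays alone (adjusted p = 0.144) or without HCD+Gl-1 array C (0.29, adjusted p = 0.249).

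No other gene of the 10 passed the test under Gl-1, so 1 of 10 was DE against 0.163% of all genes, and 1 of 10 passed the adjusted p alone against 2.48%. Cyp7a1 read 9.95, 9.91 and 10.33 against 10.24, 10.49 and 9.96 in HCD. Arrays A and B lay below all HCD arrays and array C among them. The difference ran from -0.43 to -0.17 over 7 alternative fits and passed in none (limma adjusted p at least 0.306). Cyp7a1 was 0.85 ± 0.17 above Control (DE, adjusted p = 0.00203), without overlap, and this call was lost in the fit on liver arrays alone (adjusted p = 0.113) and with pools A and B only (0.55, adjusted p = 0.104). Nr1h4 read 10.35, 10.02 and 10.57 in HCD+Gl-1 and 9.99, 10.21 and 10.07 in HCD, a difference of 0.22 (adjusted p = 0.289) that became 0.37 (adjusted p = 0.0235) without HCD+Gl-1 array B. In array B both Cyp7b1 and Nr1h4 were the lowest of that group. Cyp8b1 read 10.36, 10.21 and 10.53 against 10.58, 10.23 and 10.30 in HCD, and the 95% interval of its difference ran from -0.23 to 0.22.

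Under Gl-2, 0 of the 10 genes was DE in liver against HCD, against 0.303% of all genes. At the adjusted p alone 0 passed, against 1.7%. Of the 10, 3 had an unadjusted limma p under 0.05, as had 2776 of all 22080 genes. The nearest was again Cyp7b1. Its values of 11.21, 11.21 and 11.26 lay above all HCD arrays and among the Control arrays, and the difference of 0.42 ± 0.12 had an adjusted p of 0.0514. It passed in 4 of 7 alternative fits, with adjusted p-values from 0.0238 to 0.254 over the 7 and 0.0392 with the pool letter as a block. Cyp7a1 read 10.58, 9.76 and 10.47, which overlapped HCD and lay above Control by 1.05 ± 0.17 (2.08-fold, DE, adjusted p = 7.4e-05). That call was lost in a fit on those groups alone (adjusted p = 0.0903).

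The feedback repressor Nr0b2 was uneven in the Gl-2 livers. It read 8.91, 9.23 and 8.07 in arrays A, B and C of HCD+Gl-2 against 9.32, 9.23 and 9.18 in HCD. Array C was the lowest of all 15 liver arrays and array B lay within HCD, so the difference of -0.50 ± 0.18 did not pass (adjusted p = 0.164), while without array B it was -0.75 and DE (adjusted p = 0.0148). The 9 immediate early genes (Fos, Jun, Egr1 and others) had the opposite order in the same arrays, with mean log2 levels of 8.50, 7.02 and 9.0 in HCD+Gl-2 against 6.79 to 6.91 in HCD, and all 9 rose by the adjusted p. Their part in the Nr0b2 values was not tested. Cyp39a1 was uneven in another array, with 7.60, 6.96 and 7.89. It was lower than in Control by 0.61 ± 0.14 (adjusted p = 0.00851, not DE), and without array B the difference was -0.35 (adjusted p = 0.158), without Control array B the adjusted p was 0.0564, and in the fit on liver arrays alone it was 0.163. The clock list that rose with Cyp7a1 in HCD against Control was highest in these livers. Its level was 9.45 to 9.52, against 9.04 to 9.15 in HCD, while the Cyp7a1 values of these groups overlapped.

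**Figure D3:**
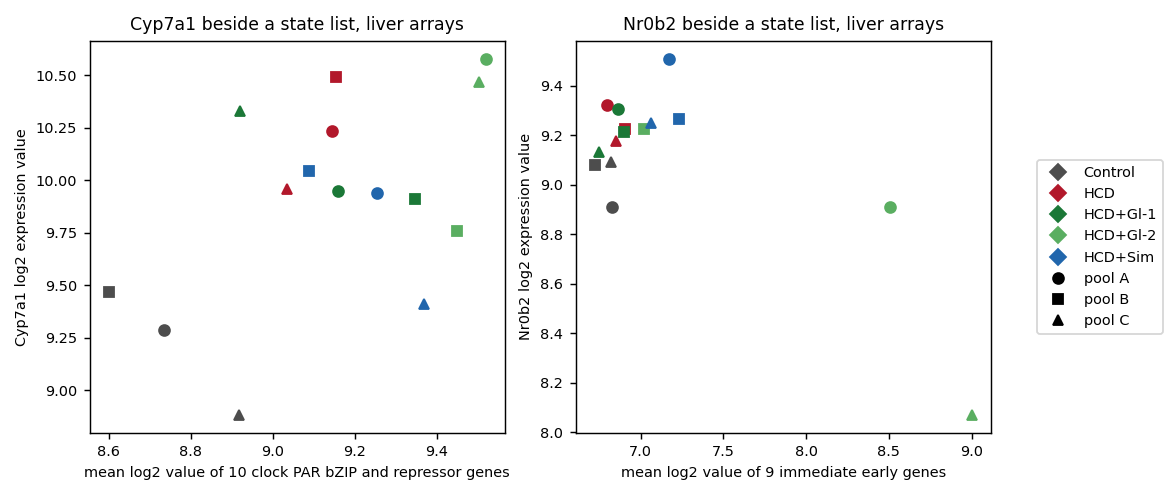
Each point is 1 of the 15 liver arrays, coloured by diet group with the pool as its shape; the left panel sets the Cyp7a1 log2 value against the mean log2 level of 10 clock genes, and the right panel sets Nr0b2 against that of 9 immediate early genes. The Control arrays (8.60 to 8.92) lie to the lower left for Cyp7a1, and HCD+Gl-2 arrays A and C (8.50 and 9.0) lie alone to the right for Nr0b2.

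Under simvastatin no gene of the 10 passed in liver against HCD. None was DE, against 0.258% of all genes, and none passed the adjusted p alone, against 1.1%. An unadjusted limma p under 0.05 was found for 5 of the 10, and for 2588 of all 22080 genes. Cyp7b1 read 11.27, 11.27 and 11.19, above all HCD arrays, with a difference of 0.44 ± 0.12 and an adjusted p of 0.0507. It passed in 5 of 7 alternative fits, with adjusted p-values from 0.0241 to 0.331 over the 7 and 0.0381 with the pool letter as a block. Cyp7a1 read 9.94, 10.05 and 9.41, partly below HCD, with a difference of -0.43 ± 0.17 (adjusted p = 0.263). Against Control it was 0.58 higher (adjusted p = 0.0694), and without HCD+Sim array C the difference was 0.78 (adjusted p = 0.013). Array C was the one with acinar markers at 6.20, the level of the other groups. Kupffer cell and macrophage markers were at 8.49 to 8.77 in HCD+Sim, above HCD, with all 4 higher and none past the adjusted p. Their part and that of the acinar and muscle signal was not tested.

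Against Control, Cyp46a1 rose and Cyp8b1 fell under simvastatin, both under the DE fold threshold. Cyp46a1 read 8.10, 7.98 and 8.05, above every Control array, a gain of 0.60 ± 0.13 (adjusted p = 0.00439). The acinar and muscle markers of these arrays were 7.48, 8.09 and 6.20 and 7.73, 8.13 and 6.56. The call was lost without Control array B (0.55, adjusted p = 0.0507) and in a fit on those groups alone (adjusted p = 0.124). Cyp8b1, the 12 alpha-hydroxylase, read 10.27, 9.97 and 10.08 against 10.53, 10.40 and 10.69 in Control, and fell by 0.43 ± 0.11 (adjusted p = 0.034). Its call was lost in the fit on liver arrays alone (adjusted p = 0.175), with pools A and B only (-0.34, adjusted p = 0.332) and with Control array A or C or HCD+Sim array B or C left out.

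**Figure D4:**
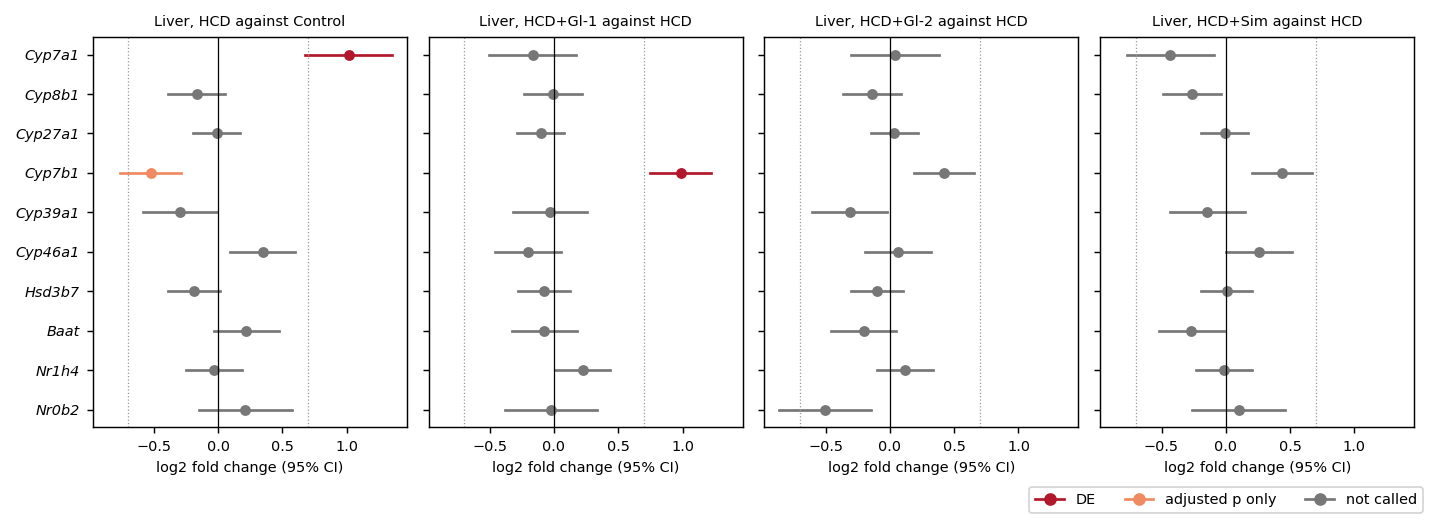
Log2 fold changes of the 10 genes in liver with 95% intervals from limma, in 4 comparisons; red marks DE genes, orange those past the adjusted p alone and grey the rest, and dotted lines mark a change of 0.7 in either direction. Cyp7a1 (1.02) and Cyp7b1 (-0.52) pass under HCD, and Cyp7b1 (0.98) passes under Gl-1.

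The 3 treatments were then set against each other. Cyp7b1 was higher under Gl-1 than under Gl-2 by 0.56 ± 0.12 (adjusted p = 0.00452) and than under simvastatin by 0.55 ± 0.12 (adjusted p = 0.00545), with no overlap in either case. In the fit on liver arrays alone these adjusted p-values were 0.128 and 0.113, and without HCD+Gl-1 array C they were 0.118 and 0.1. Cyp46a1 was lower under Gl-1 (7.59, 7.68 and 7.49) than under simvastatin by 0.46 ± 0.13 (adjusted p = 0.0327), a call lost in the fit on liver arrays alone (adjusted p = 0.0905) and with any of 5 of the 6 arrays left out. Between Gl-2 and simvastatin no gene of the 10 passed, and Nr0b2 came nearest at -0.60 ± 0.18 (adjusted p = 0.0824). None of the 10 was DE in these 3 comparisons, against 0.172%, 0.249% and 0.285% of all genes. At the adjusted p alone 1, 2 and 0 of the 10 passed, against 3.94%, 4.09% and 1.31% of all genes.

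Against Control, which shares its arrays with the HCD comparison, 1, 1 and 0 of the 10 genes were DE under Gl-1, Gl-2 and simvastatin, against 0.322%, 0.584% and 0.358% of all genes. At the adjusted p alone 2 of 10 passed in each, against 3.58%, 2.86% and 1.54% of all genes. The DE gene was Cyp7a1 in both extract groups. Cyp7a1 was lowest in Control. Its means in the 4 cholesterol groups had no settled order, since Gl-2 against HCD ran from -0.20 to 0.05 and Gl-1 against simvastatin from -0.06 to 0.27 over 7 alternative fits. The arrays of the 4 cholesterol groups overlapped each other, and HCD+Sim also overlapped Control. Cyp7b1 was lowest in HCD, apart from all other groups, then came HCD+Gl-2, HCD+Sim and Control, which overlapped, and it was highest in HCD+Gl-1, whose lowest array lay within Control.

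Cyp27a1, the entry enzyme of the alternative pathway, was the steadiest of the 10 in liver. All 15 arrays lay between 11.05 and 11.38, and its pooled SD within groups was 0.0717, against 0.137 for the median gene. Hsd3b7 ranged from 10.79 to 11.45 and Baat from 9.93 to 10.59, and neither passed the test in any of the 10 liver comparisons. Hsd3b7 was lower in every HCD+Gl-2 array than in every Control array (-0.29, adjusted p = 0.126), and Baat was higher in every HCD array than in every Control array (0.22, with an interval from -0.03 to 0.47).

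In kidney, none of the 10 genes was DE in HCD against Control, or in Gl-1, Gl-2 or simvastatin against HCD, where 0.0408%, 0.131%, 0.335% and 0.14% of all genes were. None passed the adjusted p alone, against 0.131%, 0.267%, 0.996% and 0.222%. An unadjusted limma p under 0.05 was found for 0, 1, 2 and 1 of the 10. It was found for 988, 883, 1980 and 1366 of all 22080 genes. Cyp7b1 was nonetheless ordered by diet there. It read 10.26, 10.28 and 10.23 in Control, 10.10, 10.11 and 10.17 in HCD, 10.51, 10.48 and 10.67 in HCD+Gl-1, 10.52, 10.50 and 10.60 in HCD+Gl-2 and 10.23, 10.31 and 10.24 in HCD+Sim. Every array of both extract groups lay above every array of the other 3 groups. Gl-1 exceeded HCD by 0.42 ± 0.12 (adjusted p = 0.183) and Gl-2 exceeded it by 0.41 ± 0.12 (adjusted p = 0.0781). The pooled SD of Cyp7b1 was 0.0576 in kidney against 0.168 in liver and 0.184 in brain. In a limma fit on the kidney arrays alone, with its smaller spread, the adjusted p-values were 0.00162 and 0.00096. In that fit 0.312% and 1.93% of all genes passed. Of 7 alternative fits, this one included, Cyp7b1 passed in 1 under Gl-1 (adjusted p up to 0.202) and in 2 under Gl-2 (up to 0.0779). Immediate early genes stood at 8.37 to 8.86 in the HCD+Gl-2 kidneys and at 6.61 to 6.65 in the HCD+Gl-1 kidneys, against 6.57 to 6.60 in HCD. Kidney tubule markers were also highest in both extract groups, at 12.128 to 12.172 in HCD+Gl-1 and 12.166 to 12.219 in HCD+Gl-2, above Control (at most 12.127), HCD (at most 12.069) and HCD+Sim (at most 12.120). Against HCD, 5 of 6 were higher under Gl-1 and 4 of 6 under Gl-2, with 0 and 1 past the adjusted p. Of the bile duct list (Krt19, Krt7, Epcam and Sox9), 4 of 4 were higher than in HCD under Gl-1, Gl-2 and simvastatin alike, with 1 past the adjusted p under Gl-2. Krt7 (mean kidney level 8.90) and Epcam (7.75) stood above the array medians, while Sox9 (6.84) and Krt19 (6.46) were near or below them. The list of 10 clock genes stood at 9.15 to 9.29 in HCD+Gl-2 kidneys, 8.94 to 8.97 in HCD+Gl-1 and 8.97 to 9.02 in HCD. Against HCD, 8 of the 10 were higher under Gl-2 and 3 under Gl-1, with 3 and 0 past the adjusted p. The part of these lists in the Cyp7b1 values was not tested.

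Nr1h4 in kidney read 10.13, 9.95 and 10.17 in HCD, 10.35, 10.30 and 10.29 in HCD+Gl-2 and 10.31, 10.37 and 10.30 in HCD+Sim. The arrays of both treated groups lay above those of HCD, with differences of 0.23 (adjusted p = 0.505) and 0.24 (adjusted p = 0.727). Cyp7a1 (3.84 to 4.35), Cyp8b1 (5.55 to 5.98) and Baat (5.00 to 5.62) stayed at their low kidney levels in all 15 arrays.

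In brain none of the 10 genes was DE in HCD against Control or in Gl-1, Gl-2 or simvastatin against HCD. Of all genes, 0.0317%, 0.00906%, 0.0226% and 0% were called. An unadjusted limma p under 0.05 was found for 1, 1, 0 and 0 of the 10. It was found for 1423, 1226, 1468 and 1220 of all 22080 genes. Cyp46a1, the brain enzyme of cholesterol export, read 10.79, 10.43 and 11.30 in Control and 11.21, 11.21 and 11.02 in HCD. Control arrays A and B lay below and array C above all HCD arrays, and the difference of 0.30 ± 0.13 did not pass (adjusted p = 0.649). Without Control array C it was 0.53 (adjusted p = 0.00283), and with pools A and B only 0.60 (adjusted p = 0.00238). Control array C also had the lowest glial markers of the 15 brain arrays, 10.20 against 10.27 to 10.61, and the part of its composition in the Cyp46a1 values was not tested. The 4 other diet groups lay between 10.98 and 11.37.

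Whether the liver responded differently from the other tissues was tested as a difference of 2 differences. Liver and kidney of a diet came from the same mice, which the fit did not take into account. For Cyp7a1 under HCD the liver change minus the brain change was 1.13 ± 0.24 (adjusted p = 0.0171), and minus the kidney change it was 0.96 ± 0.24 (adjusted p = 0.0733). Cyp7a1 was at 3.84 to 4.38 in all kidney and brain arrays, where a change could hardly be seen, so these values largely restate the liver change and do not show that the tissues respond differently. The gain of Cyp7b1 under Gl-1 was larger in liver than in brain by 0.82 ± 0.16 (adjusted p = 0.0127). Against kidney the difference was 0.56 ± 0.16 (adjusted p = 0.16). Brain values of Cyp7b1 (6.64 to 7.45) lay near the array medians (6.76 to 6.92), where a gain may be understated. The 2 differences from brain were the only calls among 80 tests of the 10 genes in 8 such comparisons. No alternative fit was run for these differences. The shares of all genes called against kidney were 0.263%, 0.389%, 0.625% and 0.299% for HCD, Gl-1, Gl-2 and simvastatin, and against brain they were 0.326%, 0.362%, 0.598% and 0.0996%.

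**Figure D5:**
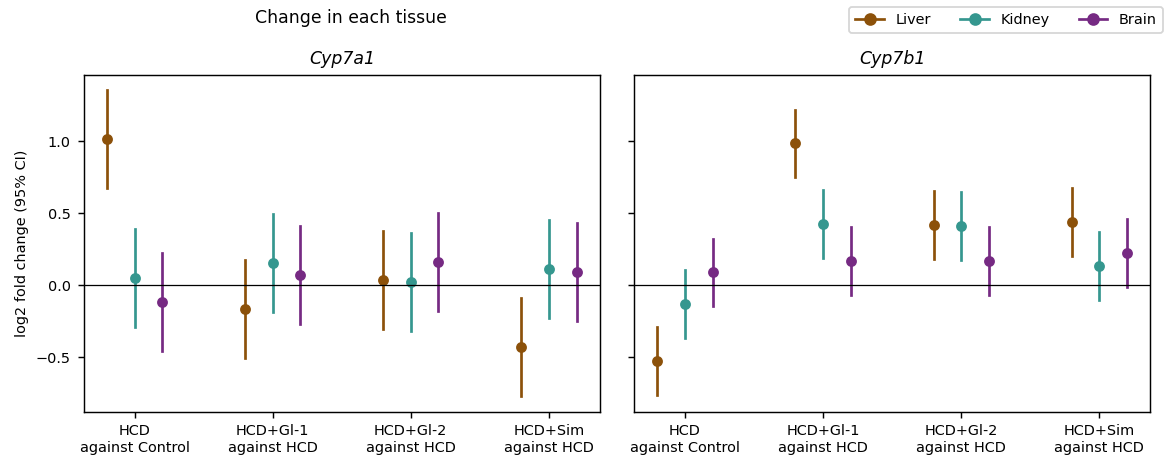
Log2 fold changes of Cyp7a1 (left) and Cyp7b1 (right) with 95% intervals from limma, in 4 comparisons and 3 tissues (colours). Cyp7a1 departs from 0 in liver under HCD (1.02), and Cyp7b1 under Gl-1 is at 0.98 in liver and 0.42 in kidney.

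Of the other genes of bile acid metabolism, 3 lists were counted in liver: 19 genes of the later synthesis steps, 15 transporters and 23 regulators. Under HCD, 4 of these 57 genes passed the adjusted p, all higher, and 1 was DE, against 1.34% and 0.245% of all genes. That gene was Abcc3, a transporter that exports bile acid conjugates to blood. It read 9.74, 9.69 and 9.67 in Control and 10.87, 10.70 and 10.75 in HCD, a gain of 1.07 ± 0.08 (adjusted p = 4.73e-12) with no overlap. Akr1d1, the 5 beta-reductase of the sterol ring, rose by 0.45 (adjusted p = 0.0122), the epoxide hydrolase Ephx1 by 0.36 (adjusted p = 0.0463) and the repressor Mafg by 0.32 (adjusted p = 0.048). The list medians were 0.04 for later synthesis steps, 0.02 for transporters and -0.04 for regulators.

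Under Gl-1, 2 of the 57 passed, near the 2.48% of all genes. Abcc3 fell by 0.36 (10.51, 10.40 and 10.34, adjusted p = 0.00778), staying 0.71 above Control, and the transcription factor Cebpb rose by 0.58 (adjusted p = 0.000677). Under Gl-2, 4 passed, against 1.7% of all genes. Akr1d1 fell by 0.40 (adjusted p = 0.027) and the amino acid acyltransferase Acnat2 by 0.52 (adjusted p = 0.0494), while Cebpb rose by 0.56 (adjusted p = 0.00076) and the xenobiotic receptor CAR (Nr1i3) by 0.43 (adjusted p = 0.0431). Under simvastatin 0 of the 57 passed, against 1.1%. Onecut1, a hepatocyte transcription factor known to act on Cyp7a1, was DE against Control under Gl-1 (0.87, adjusted p = 0.000505) and Gl-2 (0.86, adjusted p = 0.000397). It read 9.63, 9.83 and 9.48 in Control, 10.19, 10.17 and 10.02 in HCD, 10.62, 10.78 and 10.15 in HCD+Gl-1 and 10.53, 10.80 and 10.18 in HCD+Gl-2. Slc10a2, the apical bile acid carrier, was DE between Gl-2 and simvastatin (0.88, adjusted p = 0.00415), with 7.93, 6.97 and 8.12 against 6.78, 7.01 and 6.58, groups that overlapped in HCD+Gl-2 array B. In kidney 2 of the 57 passed under Gl-2, against 0.996% of all genes, Cebpb (0.46, adjusted p = 0.00763) and the carrier Slco1a1 (-0.41, adjusted p = 0.0483), and 0 passed in the other 3 kidney comparisons and in the 4 of brain, where 0.0543%, 0.0181%, 0.0362% and 0.0181% of all genes passed.

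The genes whose values ran most like those of Cyp7a1 and Cyp7b1 over the 15 liver arrays were looked up in the whole table. For Cyp7a1 they were Rgs16 (Pearson 0.861, Spearman 0.807), Upp2 (0.847 and 0.725) and Pkp4 (0.83 and 0.661). For Cyp7b1 they were C8b (0.926 and 0.832), Tpt1 (0.907 and 0.764) and Med8 (0.903 and 0.793). These coefficients describe the 15 arrays, which share diets and pools. Between the 10 genes themselves, Cyp7b1 with Nr1h4 (0.645) and Cyp27a1 with Nr0b2 (-0.621) had the only coefficients over 0.6 in size. Cyp7a1 had none with Nr0b2 of that size. HCD+Gl-1 array C had the highest Cyp7b1 (12.12) and Nr1h4 (10.57) of the 15 arrays. HCD+Gl-2 array C had the highest Cyp27a1 (11.38) and the lowest Nr0b2 (8.07). Coefficients without these arrays were not computed.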

How the data were processed

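The deposited table holds log2 values for 22080 genes on 45 arrays. According to the methods, the authors corrected signal intensities for background by RMA, quantile normalized them with oligo, adjusted for batch with ComBat (the batches are not named in the sources used here) and kept 1 probe set per gene, the one with the highest interquartile range. A batch adjustment can change differences that run with a batch. Tissue, diet and pool letter came from the labels.

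All 45 arrays and all genes entered a single limma fit (3.58.1, R 4.3.3) of 15 group means. Variances were moderated by empirical Bayes (7.34 prior and 30 residual degrees of freedom), and p-values were adjusted by Benjamini-Hochberg within each comparison. DE and list rules were as given above. Exact permutation of 3 against 3 arrays cannot go below p = 0.1, so none was run. Depth does not apply to arrays, and their number limits the precision. The members, lists and rules for named genes (every member, list genes that were DE in liver or that are given by value, and the 3 genes most correlated with each DE member) were chosen with earlier results of these data known. Pool letters were not taken to pair arrays between diet groups, since these hold different mice. Same-letter deviations correlated over 0.1 for all 3 letters only in liver Gl-1 against Gl-2 (0.142, 0.265 and 0.189) and Gl-2 against simvastatin (0.195, 0.115 and 0.177). Liver and kidney of a diet came from the same mice, so comparisons between tissues do not rest on independent animals. They were fitted unpaired, and the sources do not state whether a letter marks the same mice in each tissue. Data were simulated for liver HCD against Control with 100 genes changed by 1 and 100 by 0.5 on the log2 scale. The adjusted p recovered 100% and 79% of them, and 12 of the 191 genes that passed had not been changed. The simulated noise was independent between arrays, with the spread of each gene pooled over all 45 arrays. It thus left out the shared mice of pool C and any larger spread in liver, as for Cyp7a1. As alternatives, the fit was limited to 1 tissue, to the compared groups or to pools A and B, given a block for pool letter, or run with dim genes left out, renewed quantile normalization, trend and robust moderation, no fold threshold, and each array left out. Promoters were searched in Python 3.11.15, and figures drawn with matplotlib 3.10.9.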

Additional observations from a re-analysis of the deposited data

Results flagged for a closer look

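For 2 genes a difference between tissue responses passed the test. For Cyp7a1 under HCD the liver change minus the brain change was 1.13 on the log2 scale (limma adjusted p = 0.0171). In brain its values were 4.06, 4.38 and 4.08 in Control and 4.04 to 4.07 in HCD, and the Control level in brain was 5.04 below that in liver on the log2 scale. At that level a change in brain could hardly be seen, so the value largely restates the liver change. The gain of Cyp7b1 under Gl-1 in liver exceeded that in brain by 0.82 (limma adjusted p = 0.0127). Brain arrays lay between 6.94 and 7.02 in HCD and between 7.00 and 7.31 in HCD+Gl-1. These brain values are near the array medians (6.76 to 6.92), so a gain there may be understated. Groups of 3 arrays were not tested for outlying arrays.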

How the results depend on the processing

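Cyp7b1 under Gl-1 against HCD was DE in every fit. Of the 1 DE member of liver HCD against Control, 0 remained with liver arrays only or the compared groups only, and 2 passed without the fold threshold. Without that threshold 1 passed in Gl-1 against Gl-2 and 2 in each of Gl-1 against simvastatin and the 3 treatments against Control. The DE member of Gl-1 against Control fell to 0 with liver arrays only and with pools A and B only, and that of Gl-2 against Control to 0 with the compared groups only, while pools A and B gave 2 there and 1 for simvastatin against Control. With 1 array left out, members called ranged from 0 to 1 in Gl-2 against HCD, Gl-1 against Gl-2, Gl-1 against simvastatin, Gl-1 against Control and simvastatin against Control, from 0 to 2 in Gl-2 against simvastatin and from 1 to 2 in Gl-2 against Control. No setting reversed a call, but several uncalled differences changed sign. In liver these included Cyp7a1 in Gl-2 against HCD (-0.20 to 0.05) and Gl-1 against simvastatin (-0.06 to 0.27). Nr0b2 in Gl-2 against Control (-0.29 to 0.07) and Baat in simvastatin against Control (-0.06 to 0.09) did so too. With the pool letter as a replicate block, Cyp7b1 passed the adjusted p in liver under Gl-2 (0.0392) and simvastatin (0.0381), and the block changed no other call. The cause of each lost call was not tested.

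Over all genes, brain HCD against Control gave 7 DE genes and 207 with pools A and B only. The 3 arrays rest on 2 pools, Cyp7a1 in kidney and brain is far below its liver level, and no mouse-level spread was measured.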

Other observations

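Pool C, described as a mix of pools A and B, did not usually read between them. Over the 10 genes and 5 diet groups it lay between A and B in 9 of 50 cases in liver, 10 of 50 in kidney and 18 of 50 in brain, and over all genes in 29%, 30.3% and 25.7% of cases. In liver, Cyp7a1 was lower in C than in A and B in Control (8.88), HCD (9.96) and HCD+Sim (9.41), and higher than both in HCD+Gl-1 (10.33).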
